A study of Drosophila melanogaster with 18 samples.

Results

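The c-Jun N-terminal kinase (JNK) cascade carries stress and wound signals to the nucleus. In *Drosophila* a ligand of the tumor necrosis factor family starts a relay of kinases that ends at the JNK Basket, which phosphorylates Jun, and Jun pairs with Fos to form the transcription factor AP-1. Among the genes that AP-1 switches on is *puc*, whose product, a phosphatase, removes the phosphates from Basket and so closes a negative feedback loop. The cascade is known from dorsal closure of the embryo, wound repair, cell death and the response of haemocyte lines to microbial products.

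The mRNA of 10 genes of this pathway was followed among the 15602 genes of the RNA-seq table of the study. They were picked by name and function as the ligand *egr*, the kinases *msn*, *slpr*, *hep* and *bsk*, the AP-1 genes *Jra* and *kay*, and the targets *puc*, *Ets21C* and *Mmp1*. The choice was made with the heat shock (HS) and non-heat shock (NHS) values of these same libraries known, so for these 10 genes the difference between HS and NHS is described and no test of it is given. All 10 were found in the table and all 10 passed the minimum of a mean of 1 FPKM over the 4 libraries, which 7815 genes passed.

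S2 cells are an embryo-derived *Drosophila* line with haemocyte traits, and the cells of both groups were wild-type S2 cells not treated with RNAi and grown in M3+BPYE medium with 10% FBS. The HS group received its own volume of serum-free medium warmed to 48°C and was held at 37°C for 30 min, and the NHS group was taken before HS. There were 2 biological replicates of each group, made into poly(A)-selected, directional libraries. The sources do not say that NHS cells received an addition of cool medium, so heat and the dilution of serum cannot be told apart. In such bulk samples, fewer cells and less RNA per cell also cannot be told apart.

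Expression was given as FPKM, by name fragments per kilobase of transcript, scaled to mapped fragments. It allows genes to be compared per length but is relative within a library. The paper does not say how the RNA-seq libraries were scaled to each other. Summed over all genes, FPKM reached 923996 and 926922 in the HS libraries and 831628 and 837852 in the NHS libraries, so totals were unequal. FPKM give no read depth. The most frequent ratio between libraries among genes under 0.15 FPKM was read as a rough relative depth. It came to 60.1% and 69.3% of NHS replicate 1 in the HS libraries and to 77.0% in NHS replicate 2. Only 28.95%, 29.77% and 30.28% of the genes compared sat at these ratios. The part of the scaling between libraries in them was not tested. *Hsp68*, an HS-inducible chaperone gene, stood at 10271 and 9667 FPKM in HS cells, against 22.1 and 20.3 FPKM in NHS cells, as the group labels would have it. Of 10 haemocyte marker genes, 8 had a mean of at least 1 FPKM, among them the blood cell GATA factor *srp* at 68.3 and 64.1 FPKM in HS cells, against 63.2 and 58.1 FPKM in NHS cells. *NimC1* and *Sr-CI*, receptors of mature haemocytes, stayed at or under 0.68 FPKM in all 4 libraries. Of 15 markers of other cell types, 12 stayed under 1 FPKM in every library. The 3 with a mean of at least 1 FPKM were *elav*, *osk* and *bam*. *elav* was the highest, at 9.41 and 11.25 FPKM in HS cells and at 8.98 and 7.97 FPKM in NHS cells. The 15 summed to 15.5 and 17.3 FPKM in HS cells and to 12.4 and 12.1 FPKM in NHS cells, and *elav* made up most of this. The part of other cell types in the results was not tested.

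Differences are given below as log2 ratios, the mean log2(FPKM + 1) in HS cells minus that in NHS cells, which understate the change of low genes. Their standard errors (SE) came from limma, a linear model with variances moderated across all genes.

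The 10 mRNAs formed a group with nearly the same level in both conditions and a group that stood well below NHS after 30 min of HS. The ligand, the 4 kinases and *kay* had log2 ratios within 0.25 of 0, while *Jra* and the 3 targets lay below -1. A log2 ratio of -1 or less was seen for 4 of the 10 genes and for 2.55% of all genes tested. Both HS libraries lay below both NHS libraries for 7 of the 10 genes, against 25.6% of all genes tested, and above them for 2, against 20.5%. For the remaining gene, *bsk*, the libraries overlapped. The median log2 ratio of the 10 genes was -0.15, beside -0.02 over all 7815 genes. Because the choice of genes used this contrast, these shares are a description and nothing is read from them.

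**Figure D1:**
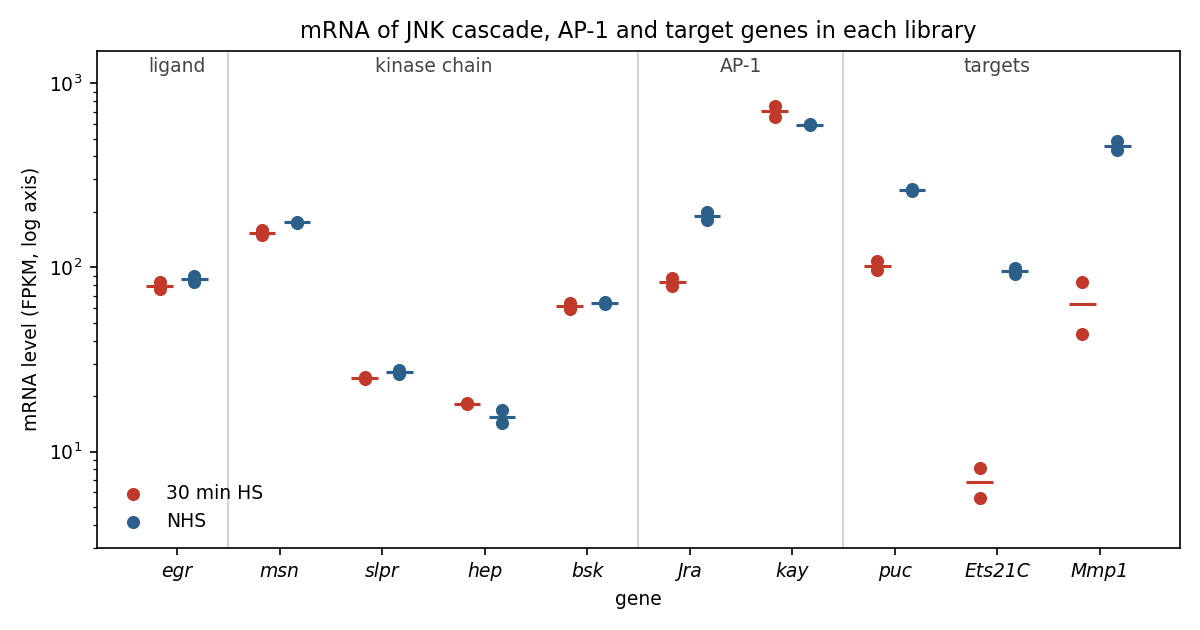
FPKM (log axis) of the 10 genes in each library, with 2 HS libraries (red, left) and 2 NHS libraries (blue, right) per gene as points and their mean as a line. *Ets21C* stood at 8.14 and 5.59 FPKM in HS cells, against 92.1 and 99.4 FPKM in NHS cells, while the kinases lay near the same level in both.

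*egr* encodes Eiger, the fly ligand of the tumor necrosis factor family. Its mRNA stood at 76.0 and 82.9 FPKM in HS cells, against 83.6 and 89.5 FPKM in NHS cells. The HS libraries were lower, but the higher HS library came close to the lower NHS library. The log2 ratio was -0.12 (SE 0.10). Under quantile normalization it turned to 0.01.

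*msn* encodes Misshapen, a Ste20-type kinase at the head of the relay. It was the most abundant kinase mRNA of the cascade, with 158.8 and 149.9 FPKM in HS cells and 175.8 and 174.9 FPKM in NHS cells, a log2 ratio of -0.18 (SE 0.09). *slpr* encodes Slipper, a mixed-lineage kinase that acts below Misshapen as a JNK kinase kinase. Its values were 24.9 and 25.3 FPKM in HS cells and 26.2 and 27.7 FPKM in NHS cells, with a log2 ratio of -0.10 (SE 0.09). The HS libraries of both genes were a little lower, without overlap. *slpr* overlaps *CG2278* on the same strand, and that gene stood at 1.48 and 1.55 FPKM in HS cells and at 0.79 and 0.53 FPKM in NHS cells, far below *slpr*.

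*hep* encodes Hemipterous, the JNK kinase that phosphorylates Basket. It was the scarcest kinase mRNA, with 18.3 and 18.1 FPKM in HS cells and 16.7 and 14.2 FPKM in NHS cells. The HS libraries were the higher ones (log2 ratio 0.23 ± 0.12 SE), but the log2 ratio was -0.002 when libraries were scaled to the ribosomal protein mRNAs. *bsk*, the JNK gene itself, had 63.7 and 59.4 FPKM in HS cells and 63.5 and 64.5 FPKM in NHS cells. Its libraries overlapped, and the log2 ratio of -0.06 (SE 0.09) turned to 0.03 under quantile normalization. Summed over the 4 kinases, the level was 259 ± 9.19 FPKM in HS cells and 282 ± 0.57 FPKM in NHS cells (SD, n = 2 each). The ratio of *msn* to *bsk* was 2.49 and 2.52 in HS cells and 2.77 and 2.71 in NHS cells, and that of *hep* to *bsk* was 0.288 and 0.305 in HS cells and 0.264 and 0.221 in NHS cells. The kinase proportions thus moved far less than the levels of the targets.

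The AP-1 genes differed from each other. *Jra*, the fly Jun gene, stood at 87.5 and 79.7 FPKM in HS cells, against 180.3 and 199.8 FPKM in NHS cells. Both HS libraries were far below both NHS libraries, at 44.0% of the NHS mean, with a log2 ratio of -1.17 (SE 0.11). In rank, *Jra* stood above 85.4% and 84.7% of the genes tested in HS cells and above 93.1% and 93.9% in NHS cells. *kay*, the fly Fos gene, stood at 752.3 and 655.1 FPKM in HS cells, against 599.8 and 593.1 FPKM in NHS cells. Its HS libraries were the higher ones, at 118% of the NHS mean (log2 ratio 0.23 ± 0.10 SE), but with ribosomal protein scaling the log2 ratio was -0.01.

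*kay* was the most abundant of the 10 mRNAs in both conditions, and between 141 and 163 of the 7815 genes lay above it in a library. Fos mRNA thus outnumbered Jun mRNA per length throughout. The ratio of *kay* to *Jra* was 8.60 and 8.22 in HS cells, against 3.33 and 2.97 in NHS cells. These ratios are taken within a library and do not depend on the scaling between libraries. The sum of both mRNAs was 787 ± 74.3 FPKM in HS cells and 787 ± 8.99 FPKM in NHS cells (SD, n = 2 each), since *kay* made up most of it.

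*puc* encodes Puckered, the dual-specificity phosphatase that inactivates Basket. Its mRNA stood at 107.6 and 96.5 FPKM in HS cells, against 267.7 and 259.0 FPKM in NHS cells. The HS libraries were at 38.8% of the NHS mean, far outside the spread of either pair, with a log2 ratio of -1.36 (SE 0.10). In rank, *puc* stood above 88.4% and 87.4% of the genes tested in HS cells and above 95.6% and 95.5% in NHS cells. The mRNA of the phosphatase was more abundant per length than that of its substrate in every library, but by less after HS. The ratio of *puc* to *bsk* was 1.69 and 1.62 in HS cells and 4.22 and 4.02 in NHS cells.

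*Ets21C* encodes a transcription factor of the ETS family that is induced through JNK in imaginal discs and in immune responses. It stood at 8.14 and 5.59 FPKM in HS cells, against 92.1 and 99.4 FPKM in NHS cells. This is 7.17% of the NHS mean, a log2 ratio of -3.64 (SE 0.19), and only 10 of the 7815 genes had a lower one. In HS cells its level was above that of 23.1% and 16.4% of the genes tested, and in NHS cells it was above that of 85.0% and 86.5%. Within the pathway *Ets21C* was the lowest of the 10 genes in HS cells and the sixth in NHS cells.

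*Mmp1* encodes a matrix metalloproteinase that cleaves extracellular matrix and basement membrane. It stood at 83.6 and 43.3 FPKM in HS cells, against 433.8 and 483.4 FPKM in NHS cells. Both HS libraries were far lower, at 13.8% of the NHS mean (log2 ratio -2.91 ± 0.33 SE), but they differed from each other by a factor of 1.93, the widest replicate gap among the 10 genes. Without HS replicate 1 the log2 ratio was -3.37 and without HS replicate 2 it was -2.44. It stood above 84.7% and 71.3% of the genes tested in HS cells and above 97.3% and 97.5% in NHS cells, where it was the second of the 10 genes. A lower log2 ratio than that of *Mmp1* was seen for 22 of all genes tested, than that of *puc* for 120 and than that of *Jra* for 149. Summed over the 3 targets, the level was 172 ± 38.1 FPKM in HS cells and 818 ± 34.1 FPKM in NHS cells (SD, n = 2 each).

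**Figure D2:**
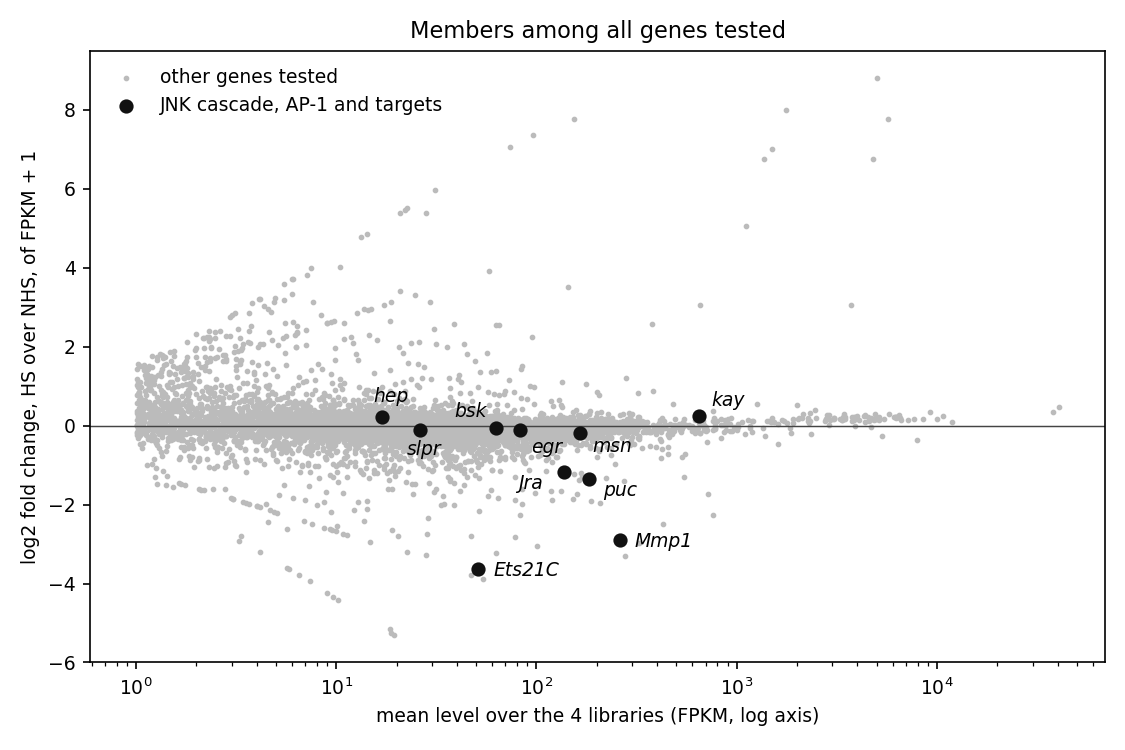
Log2 fold change (log2 ratio of HS over NHS) against the mean FPKM over the 4 libraries (log axis) for 7815 genes (grey), with the 10 genes in black. *Ets21C* (-3.64), *Mmp1* (-2.91), *puc* (-1.36) and *Jra* (-1.17) lay below most genes of like level, and the other 6 lay between -0.18 and 0.23.

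**Figure D3:**
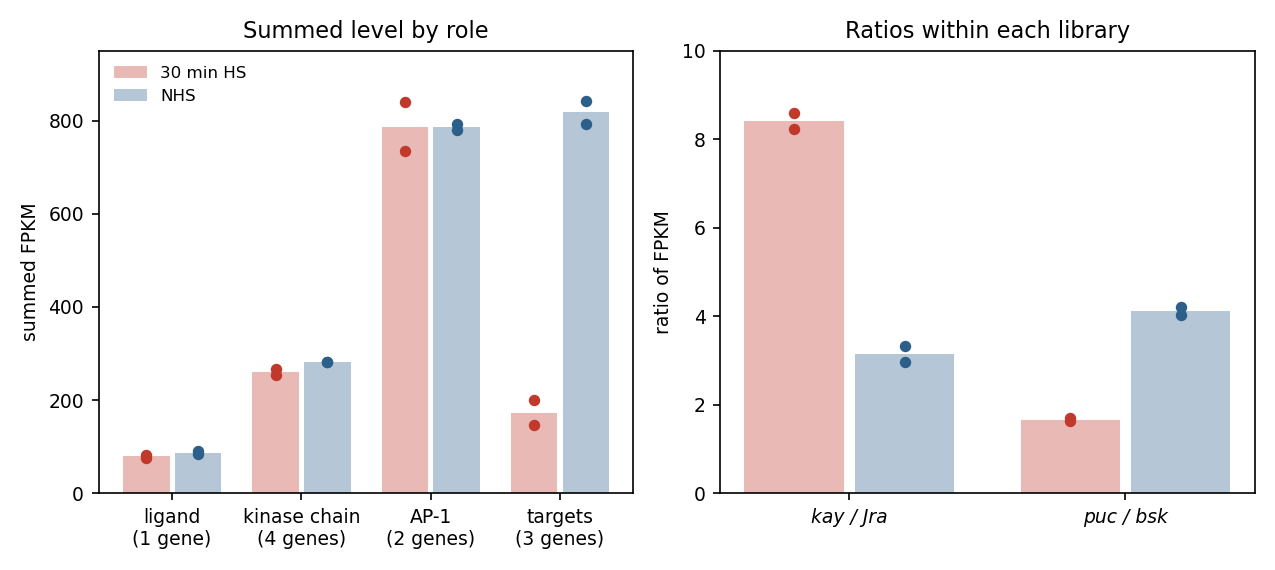
Left, FPKM summed over the genes of each role. Right, the ratio of *kay* to *Jra* and of *puc* to *bsk*. Bars are means and points are the 2 HS libraries (red, left) and 2 NHS libraries (blue, right). The targets summed to 172 FPKM in HS cells and 818 FPKM in NHS cells, while the kinases, at 259 and 282 FPKM, lay close together.

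The order of the 10 mRNAs differed between the conditions. In HS cells it ran, from high to low, *kay*, *msn*, *puc*, *Jra*, *egr*, *Mmp1*, *bsk*, *slpr*, *hep* and *Ets21C*, and the libraries of *Jra* and *egr*, *egr* and *Mmp1*, and *Mmp1* and *bsk* overlapped. In NHS cells it ran *kay*, *Mmp1*, *puc*, *Jra*, *msn*, *Ets21C*, *egr*, *bsk*, *slpr* and *hep*, and the 2 libraries of each gene lay apart from those of its neighbors. The order of *msn*, *egr*, *bsk*, *slpr* and *hep* among themselves was the same in both conditions.

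The 10 genes lie on all 5 major chromosome arms that carry euchromatic genes in this annotation (*egr*, *Jra* and *Mmp1* on 2R, *bsk* and *Ets21C* on 2L, *kay* and *puc* on 3R, *msn* on 3L, *slpr* and *hep* on X). Of these genes, 6 overlap a gene on the other strand, counted over whole gene spans with introns, so shared exon sequence is not implied. The reads were aligned with a strand setting, but no source used here says whether the FPKM step used strand. *nAChRbeta3*, which lies opposite *Ets21C*, stood at 26.8 and 23.2 FPKM in HS cells, against 46.9 and 51.8 FPKM in NHS cells, and was thus more abundant than *Ets21C* after HS and less abundant before. *RpLP0-like*, opposite *Jra*, stood at 159 and 128 FPKM in HS cells and at 151 and 152 FPKM in NHS cells. *Pof*, opposite *Mmp1*, stood at 18.7 and 17.9 FPKM in HS cells and at 18.8 and 17.1 FPKM in NHS cells. The part of such overlaps in the values of *Jra*, *Ets21C* and *Mmp1* was not tested.

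To describe the rest of the pathway, genes listed by function were looked up in the limma fit over all 7815 genes. These lists, like the 10 genes, were chosen with earlier results of these libraries known, so their calls are not independent evidence of a direction. Their p-values are given as a description. The threshold for a call was 0.05 on the Benjamini-Hochberg adjusted p. It was passed by 3.31% of genes, of which 122 were lower and 137 higher after HS (1.56% and 1.75%). An unadjusted p under 0.05 was reached by 10.5% of genes as lower and by 7.42% as higher. Lists are described by their counts and their median, with no test of the list as a set. Listed symbols that matched no identifier were left out and not looked at. This left 25 of 29 receptors, adaptors and regulators and 24 of 25 genes reported to respond to JNK or AP-1. It left 15 of 17 bZIP genes, 16 of 18 ERK, p38 and phosphatase genes, and 14 of 17 matrix genes.

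Receptors, adaptors and regulators of the cascade had no call. Of 25 such genes in the table, 24 were tested, and 0 were called in either direction in limma, while an unadjusted p under 0.05 was reached by 3 as higher and by 4 as lower. The median log2 ratio was -0.02, the same as over all genes. *grnd*, one of the receptors of Eiger, was at most 0.09 FPKM in any library and was not tested, while *wgn*, the other receptor, stood at 33.2 and 35.1 FPKM in HS cells and at 41.5 and 34.7 FPKM in NHS cells. The largest negative value was that of *mbc*, an activator of Rac GTPases, with 32.1 and 42.2 FPKM in HS cells and 73.7 and 91.5 FPKM in NHS cells (log2 ratio -1.14 ± 0.19 SE, limma adjusted p = 0.064). The largest positive one was that of *wnd*, a kinase that feeds into the JNK relay in neurons, with 18.7 and 24.7 FPKM in HS cells and 9.47 and 12.6 FPKM in NHS cells (log2 ratio 0.91 ± 0.21 SE, limma adjusted p = 0.12). *chic*, the profilin gene, was the most abundant of the list and had a log2 ratio of -0.17 (± 0.09 SE, limma adjusted p = 0.45). With libraries brought to equal totals or scaled to the ribosomal protein mRNAs, *mbc*, the GTPase gene *Rac2* and the kinase gene *Mekk1* were called lower. The last 2 were named after their values were seen.

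Among genes reported in fly tissues or cell lines to respond to JNK or AP-1, 4 were called lower and the others did not pass. Of 24 in the table, 17 were tested, and 4 were called lower and 0 higher in limma. An unadjusted p under 0.05 was reached by 9 as lower and by 1 as higher. The median log2 ratio was -0.61, against -0.02 over all genes.

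*upd3*, which encodes a JAK-STAT cytokine, fell to 6.49 and 6.68 FPKM in HS cells, against 51.1 and 49.4 FPKM in NHS cells (log2 ratio -2.76 ± 0.10 SE, limma adjusted p = 0.0017). *upd2*, a second cytokine gene of that family and a neighbor of *upd3* on X, fell to 5.03 and 2.48 FPKM in HS cells, against 44.8 and 38.4 FPKM in NHS cells (log2 ratio -3.21 ± 0.30 SE, limma adjusted p = 0.019). For both, the 2 HS libraries lay far below the NHS libraries.

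*scaf*, which encodes a secreted protein related to serine proteases and active in dorsal closure, fell to 24.9 and 29.3 FPKM in HS cells, against 107.7 and 167.5 FPKM in NHS cells (log2 ratio -2.27 ± 0.24 SE, limma adjusted p = 0.026). *drpr*, which encodes an engulfment receptor, fell to 21.4 and 22.1 FPKM in HS cells, against 35.6 and 39.8 FPKM in NHS cells (log2 ratio -0.76 ± 0.11 SE, limma adjusted p = 0.046). Leaving out a library ended most of these calls. *upd3* alone was called without HS replicate 1, HS replicate 2 or NHS replicate 2, and 0 were called without NHS replicate 1. The call of *drpr* was also lost under quantile normalization and without a variance trend.

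The remaining 13 genes of this list did not pass. *Thor* and *Pvf2*, named after their values were seen, were among them. Their log2 ratios were -1.86 (± 0.28 SE, limma adjusted p = 0.052) and -1.27 (± 0.31 SE, limma adjusted p = 0.13). *Socs36E*, a feedback inhibitor of JAK-STAT signaling and the most abundant of the list by its mean over the 4 libraries, had 111.9 and 62.6 FPKM in HS cells and 347.0 and 308.6 FPKM in NHS cells (log2 ratio -1.95 ± 0.30 SE, limma adjusted p = 0.054). *hid*, a pro-apoptotic gene named after its values were seen, had the highest log2 ratio of the list (1.08 ± 0.18 SE, limma adjusted p = 0.063). Its level was low, with 4.54 and 5.52 FPKM in HS cells and 1.99 and 1.71 FPKM in NHS cells. Under 1 FPKM on average were 7 genes of the list, among them *upd1*, *dpp* and *Ilp8*.

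**Figure D4:**
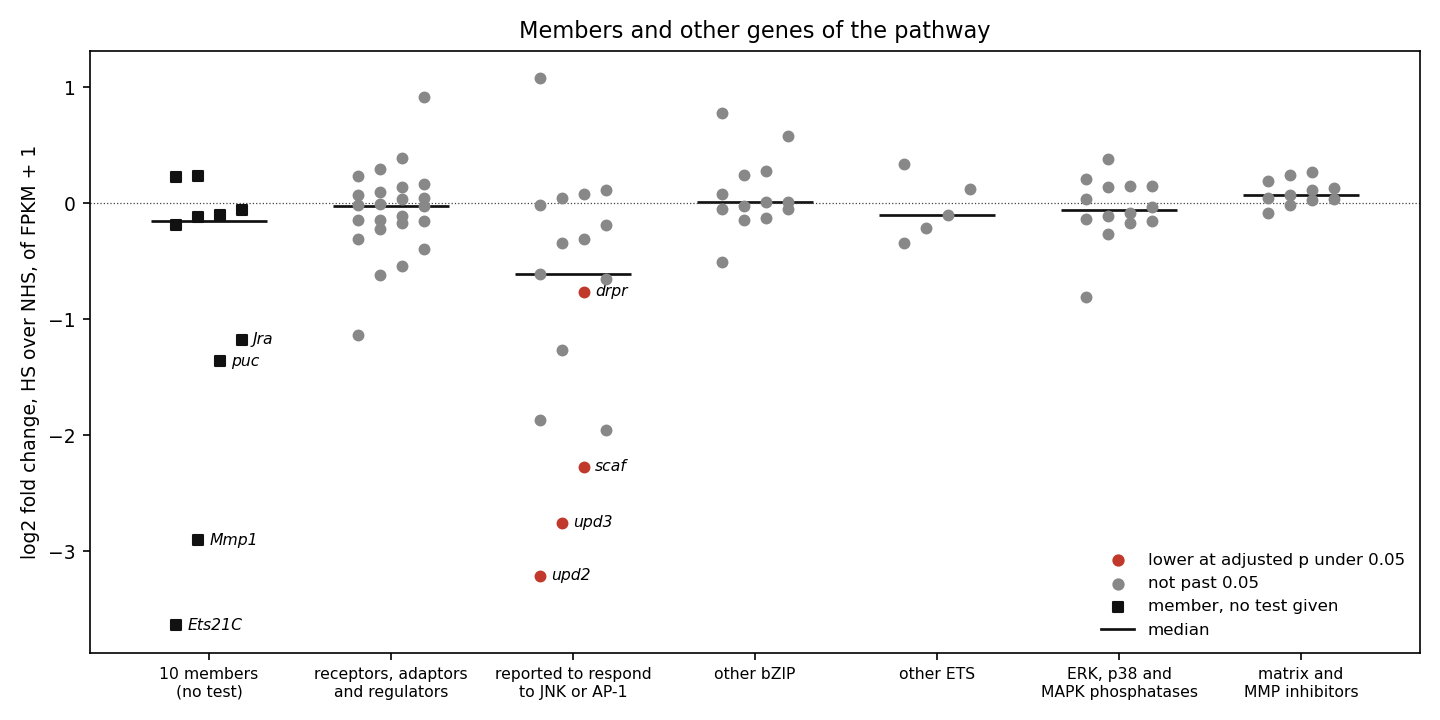
Log2 fold change (log2 ratio of HS over NHS) for the 10 genes (black squares, no test given) and for tested genes of 6 lists of the pathway (circles), with the median of each as a line. Red circles were called lower at an adjusted p under 0.05 from limma. These were *upd2*, *upd3*, *scaf* and *drpr*, all in the list of genes reported to respond to JNK or AP-1.

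The relatives of the AP-1 genes and of *Ets21C* had no call. AP-1 proteins have a basic leucine zipper (bZIP) domain, and of 13 other bZIP genes tested, 0 were called in limma, with an unadjusted p under 0.05 for 1 in each direction and a median log2 ratio of 0.01. *CrebA*, a bZIP gene of the secretory pathway, had 75.2 and 89.4 FPKM in HS cells and 49.1 and 45.5 FPKM in NHS cells (log2 ratio 0.78 ± 0.13 SE, limma adjusted p = 0.061), and it was called higher with robust variance moderation. *gt*, a gap gene, was near the minimum, with 1.36 and 1.44 FPKM in HS cells and 0.57 and 0.65 FPKM in NHS cells (log2 ratio 0.58, limma adjusted p = 0.29). *crc*, the fly ATF4 gene, was the most abundant, at 637 and 733 FPKM in HS cells and 663 and 758 FPKM in NHS cells (log2 ratio -0.05, limma adjusted p = 0.9).

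Of the other 7 ETS genes, 5 were tested and 0 were called in limma, also at an unadjusted p under 0.05, and *Ets65A* and *Ets98B* were at most 0.06 FPKM. The median log2 ratio was -0.10. *pnt*, the most abundant of them, stood at 198.8 and 209.0 FPKM in HS cells and at 197.1 and 176.6 FPKM in NHS cells (log2 ratio 0.13, limma adjusted p = 0.63). *Ets97D* and *Eip74EF* had log2 ratios of -0.34 (adjusted p = 0.54) and 0.34 (adjusted p = 0.33). The log2 ratio of *Ets97D* was the lowest of these 5 tested ETS genes.

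The parallel MAP kinase branches were tested as a list of ERK and p38 kinases and MAP kinase phosphatases. Of 14 genes tested, 0 were called in limma, with an unadjusted p under 0.05 for 1 that was lower and 0 that were higher, and a median log2 ratio of -0.06. The largest negative value was that of the stress kinase gene *p38a*, at 32.3 and 48.8 FPKM in HS cells and 61.0 and 80.8 FPKM in NHS cells (log2 ratio -0.81 ± 0.26 SE, limma adjusted p = 0.22). Beside *puc*, the phosphatase gene *Mkp3*, which acts on ERK, stood at 40.3 and 37.8 FPKM in HS cells and at 37.1 and 38.9 FPKM in NHS cells, and *MKP-4* had a log2 ratio of 0.38 (adjusted p = 0.35). The ERK gene *rl* was listed at 0 in all 4 libraries, and no level is drawn from this.

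For *Mmp1*, the comparison was with genes of the extracellular matrix and of its turnover. Of 11 tested, 0 were called in limma, also at an unadjusted p under 0.05, with log2 ratios between -0.08 and 0.27 and a median of 0.07. *Mmp2*, the other matrix metalloproteinase gene of the fly, stood at 43.8 and 26.8 FPKM in HS cells and at 44.0 and 27.2 FPKM in NHS cells (log2 ratio -0.01 ± 0.34 SE, limma adjusted p = 0.99). *Timp*, which encodes an inhibitor of these proteases, was at most 0.16 FPKM in any library. The ratio of *Mmp1* to *Mmp2* was 1.91 and 1.62 in HS cells and 9.87 and 17.8 in NHS cells. *SPARC*, the most abundant matrix gene of the list, had a log2 ratio of 0.04 (adjusted p = 0.91), which changed sign with the scaling. *PH4alphaEFB*, a collagen hydroxylase gene, and *Col4a1*, a collagen gene, had log2 ratios of 0.27 (adjusted p = 0.57) and 0.25 (adjusted p = 0.55).

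The genes most like the targets were sought over the 4 libraries by the Euclidean distance of their centered log2(FPKM + 1) values, among 5483 other genes with a symbol and a mean of at least 10 FPKM. With 4 libraries in 2 conditions, the distance mostly reflects the size of the difference between conditions. Among the nearest to *puc* were *CG11396* (distance 0.14) and *GlcT* (0.15), a glucosyltransferase gene of sphingolipid synthesis. *GlcT* stood at 22.5 and 17.8 FPKM in HS cells and at 58.0 and 56.1 FPKM in NHS cells. Nearest to *Ets21C* were *upd2* (0.54), *pirk* (0.67) and *CecB* (0.78), and nearest to *Mmp1* were *pirk* (0.36), *CG5835* (0.37) and *upd2* (0.42). *pirk*, which encodes a negative regulator of the Imd immune pathway, stood at 84.9 and 60.7 FPKM in HS cells and at 510.7 and 648.3 FPKM in NHS cells. *CecB*, a cecropin gene, stood at 9.61 and 13.1 FPKM in HS cells and at 98.5 and 130.1 FPKM in NHS cells. These genes were picked for their likeness to the targets, so, apart from *upd2* in its list above, their differences are given without a test.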

How the data were processed

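The authors clipped adapters, dropped reads under 20 nt, aligned reads to dm3 with TopHat2 and deposited FPKM per gene and library from Cuffnorm. The submitters' notes name these tools, without versions. The 16 PRO-seq samples were not analysed here. Replicate numbers came from column names, and 0 columns were unmapped. Symbols were matched by FlyBase identifier for 14925 of 15602 genes. The annotation (Ensembl, BDGP6) is of another build than dm3. Its gene positions served only to find overlaps, which are those of whole gene spans in that annotation.

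The log2(FPKM + 1) values of genes averaging 1 FPKM or more were fitted with limma 3.58.1 in R 4.3.3. Condition was the sole term, eBayes used a variance trend, and p-values were adjusted by Benjamini-Hochberg. The authors' FDR of 0.001 for DESeq2 on counts was tried as an alternative threshold. P-values rest on 2 libraries a group. The 10 members and all lists were chosen with earlier results of these data known. Named from each list were called genes with separated libraries, the 2 largest changes and the most abundant gene, and for each target the 3 genes nearest in pattern. A few genes that this rule names are not reported here. Others are marked or serve as receptor, paralog, inhibitor, parallel-branch or marker genes. Alternatives were other pseudocounts, filters, scalings, variance settings, a replicate term and leaving out each library. Figures were drawn with matplotlib 3.10.9.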

Additional observations from a re-analysis of the deposited data

How the results depend on the processing

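For *Jra*, *puc*, *Ets21C* and *Mmp1* the log2 ratio stayed at or below -1.059 under all 15 refits tried. The filters, variance settings and replicate term leave a log2 ratio unchanged by construction. Only the pseudocounts, scalings and left-out libraries could move it. Without any 1 library it ranged from -1.25 to -1.10 for *Jra*, from -1.44 to -1.28 for *puc*, from -3.87 to -3.40 for *Ets21C* and from -3.37 to -2.44 for *Mmp1*. Equal totals and ribosomal protein scaling put the median log2 ratio over all genes at -0.16 and -0.25, and that of the 10 genes to -0.30 and -0.39. Signs turned for *egr* and *bsk* under quantile normalization and for *hep* and *kay* under ribosomal protein scaling. Over all genes, the calls were 280 higher with no filter and 60 with a filter of 5 FPKM. They were 252 lower and 132 higher with equal totals, 446 lower and 142 higher with ribosomal protein scaling, and 190 lower with robust moderation. With the threshold at 0.001, 10 genes were called higher and 0 lower. Without any 1 library, 16 to 36 were higher and 6 to 34 lower.

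With the replicate number as a block, 334 were higher and 582 lower. No source says what a number shares, and the deviations of same-numbered libraries correlated at 0.22, so this fit is given only here. Among receptors, adaptors and regulators, the block gave 1 higher, *wnd*, and 4 lower, *Mekk1*, *CYLD*, *Rac2* and *mbc*. No filter gave 1 lower, robust moderation 2 lower, and each of equal totals and ribosomal protein scaling 3 lower. Among genes reported to respond to JNK or AP-1, the block gave 1 higher and 8 lower, ribosomal protein scaling 7 lower and equal totals 6 lower. Robust moderation gave 1 higher and 6 lower, no trend 1 higher and 3 lower, and an adjusted p under 0.001 left 0. Most calls were lost when a library was left out. Among other bZIP genes, the block gave 1 higher, *CrebA*, and 1 lower, *Xrp1*, and robust moderation gave 1 higher, *CrebA*. Among ERK and p38 genes the block gave 1 lower, *p38a*. The cause of these changes was not tested. *SPARC* turned to -0.11 with equal totals, -0.20 with ribosomal protein scaling, -0.079 with quantile normalization and -0.06 to 0.14 without a library, *pnt* to -0.021 and -0.11 with equal totals and ribosomal protein scaling, and *crc* to -0.15 to 0.048 without a library. FPKM hold no read numbers, so counting error could not be set beside the low values of *Ets21C* and *upd2* in HS cells.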

Other observations

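Some genes differed more between the replicate numbers than between the conditions. *Hml*, a hemolectin gene of haemocytes, stood at 4.45 FPKM in HS replicate 1 and 20.7 FPKM in HS replicate 2, and at 5.69 FPKM in NHS replicate 1 and 22.5 FPKM in NHS replicate 2. *He*, which encodes the haemocyte surface protein Hemese, went the other way, with 5.36 and 1.21 FPKM in HS cells and 5.97 and 1.09 FPKM in NHS cells. *Mmp2* showed the same kind of split. Among the 10 genes of the JNK pathway, replicates of HS cells differed by a factor of more than 1.15 only for *Ets21C* (1.46) and *Mmp1* (1.93), and those of NHS cells by a factor of at most 1.18. *egr* was higher in replicate 2 in both conditions, by a factor of 1.09 in HS cells and 1.07 in NHS cells, and its HS mean was 91.8% of its NHS mean. *Mmp1* was the lower one in replicate 2 of HS cells and the lower one in replicate 1 of NHS cells. These genes were chosen after their values were seen.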
